A study of Mus musculus with 63 samples.

Results

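The mice described here were aged LS-G6pc-/- mice with hepatocellular adenoma (HCA), a benign liver tumor, and the comparison was between those with and those without amyloidosis. LS-G6pc-/- mice lack G6pc, which encodes the catalytic subunit of glucose-6-phosphatase, in the liver alone and serve as a model of glycogen storage disease type 1a. Members were chosen by the sample labels: age group G6 (16-18 months), genotype LS-G6pc-/-, tumor present. This gave 10 of the 63 mice of the series. Amyloidosis was recorded as present in 5 mice (KO1011, KO1038, KO1176, KO1270 and KO856) and as absent in 5 (KO1087, KO1183, KO1215, KO1274 and KO1313). For each mouse, RNA from plasma exosomes was reverse transcribed, pre-amplified and run on 1 TaqMan rodent microRNA array card with 375 microRNA assays. The same cards of 6 LS-G6pc-/- mice with HCA of age group G5 (13-15 months; 2 with and 4 without amyloidosis), of 6 LS-G6pc-/- G6 mice without HCA (5 with and 1 without amyloidosis) and of 3 wild-type (WT) G6 mice served for orientation. G6pc was deleted in every LS-G6pc-/- mouse of both groups, so the comparison concerned amyloidosis among mutants and not the deletion. The labels gave neither the type of amyloid nor the organ in which it lay.

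Amyloidosis is the extracellular deposition of misfolded protein as fibrils. In the mouse its systemic form is best known from long-lasting inflammation, in which the liver secretes serum amyloid A and fragments of it are laid down in spleen, liver and kidney. Exosomes are small vesicles that cells release into blood with a cargo that includes microRNAs, short RNAs that repress messenger RNAs paired to their seed, the bases 2 to 8 of the mature strand. Plasma vesicles come from blood cells, platelets, endothelium and solid organs together, so a lower level in plasma cannot be told apart from fewer vesicles of 1 source or less microRNA per vesicle.

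Mature sequences are shown for microRNAs described below and for seed partners of some of them, because members of 1 seed group are close in sequence; whether their TaqMan assays share signal was not tested. Sequences and coordinates are those of RefSeq (GRCm38.p6), with the seed in capitals; 20 of the 23 microRNAs looked up had a mature sequence. The let-7 members encoded at chr17:17830366-17830387 (let-7e, plus strand), chr15:85706616-85706637 (let-7c, plus strand, with a further copy on chromosome 16) and chr15:85707325-85707346 (let-7b, plus strand) share 1 seed:
let-7e: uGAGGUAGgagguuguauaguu
let-7c: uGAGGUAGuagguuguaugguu
let-7b: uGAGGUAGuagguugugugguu

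miR-215 (chr1:185313610-185313630, plus strand) and miR-192 (chr19:6264857-6264877, plus strand), which are abundant in liver, gut and kidney, share another:
miR-215: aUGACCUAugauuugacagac
miR-192: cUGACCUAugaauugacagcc

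The paralogous miR-17, miR-106a and miR-106b clusters supplied miR-25 (chr5:138165332-138165353, minus strand) with the seed of miR-92a (chr14:115044476-115044496, plus strand, with a further copy on chromosome X), miR-17 (chr14:115043684-115043706, plus strand) with the seed of miR-106a (chrX:52742541-52742563, minus strand), and miR-19a (chr14:115044048-115044070, plus strand):
miR-25: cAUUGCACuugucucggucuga
miR-92a: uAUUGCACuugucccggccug
miR-17: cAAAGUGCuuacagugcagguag
miR-106a: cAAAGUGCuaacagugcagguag
miR-19a: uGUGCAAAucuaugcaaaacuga

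miR-29a (chr6:31062673-31062694, minus strand), known to repress collagen genes, and miR-31 (chr4:88910614-88910635, minus strand), abundant in epithelium, are printed because the run period and the detection test turned on them:
miR-29a: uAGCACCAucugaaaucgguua
miR-31: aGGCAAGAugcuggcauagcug

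The depth of the cards was examined first. A threshold cycle (Ct) counts PCR cycles, so 1 cycle stands for a factor of about 2 and a low Ct for abundant RNA. A well was called measured at a Ct of 14-32, and the level of a microRNA was the mean of all measured Ct of its card minus its own Ct, which is a log2 scale on which higher means more. In mice with amyloidosis 109, 131, 120, 125 and 107 of 384 wells were measured (KO1011, KO1038, KO1176, KO1270 and KO856). In mice without amyloidosis 95, 133, 121, 134 and 68 wells were measured (KO1087, KO1183, KO1215, KO1274 and KO1313). KO1087 and KO1313, both without amyloidosis, were the only cards under 100 wells. The means were 118.4 ± 10.3 wells in mice with and 110.2 ± 28.3 wells in mice without amyloidosis (SD, n = 5 each; two-sided exact permutation test, p = 0.595). Without KO1313 the difference in wells turned from 8.2 to -2.35. The mean measured Ct was 27.52 ± 0.36 cycles with and 27.42 ± 0.30 cycles without amyloidosis (SD, n = 5 each; two-sided exact permutation test, p = 0.683). The 4 wells of the small nuclear RNA U6 had mean Ct of 22.7, 20.5, 19.7, 20.8 and 19.7 in the mice with amyloidosis and of 26.1, 18.1, 22.6, 19.8 and 22.8 in those without, in the same orders of mice (two-sided exact permutation test, p = 0.429).

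Because the level is set against whatever a card measured, a card on which only abundant microRNAs stay within range gives them low levels. The mean level of the 50 microRNAs measured in all 10 mice was 1.05, 1.27, 1.40, 1.17 and 0.76 in the mice with amyloidosis and 0.83, 2.26, 1.89, 1.38 and -0.53 in those without. KO1313, the card with the fewest measured wells, was the lowest of the 10. In it 35 of the 50 microRNAs lay below all other mice without amyloidosis. The year stored in the card files placed the runs in 3 periods. KO1011, KO1038, KO1176 and KO1270 with amyloidosis and KO1087, KO1274 and KO1313 without were run in period 2, whereas KO856 with amyloidosis was run in period 1 and KO1183 and KO1215 without in period 3. Only run period 2 held both groups.

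**Figure D1:**
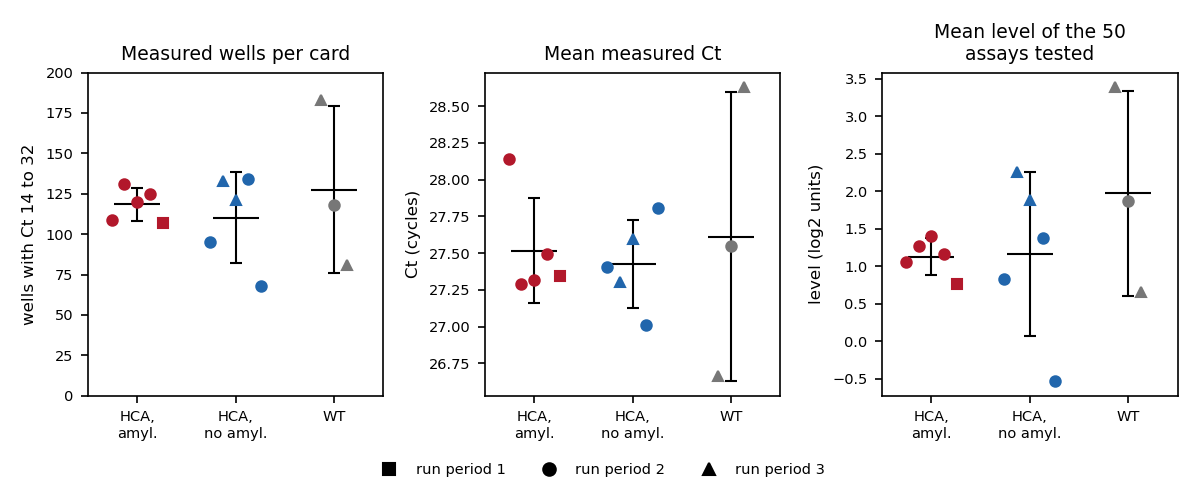
Measured wells (Ct of 14 to 32), mean measured Ct in cycles and mean level of the 50 microRNAs tested (log2 units) of each card, for G6 LS-G6pc-/- mice with HCA and amyloidosis (n = 5), with HCA and no amyloidosis (n = 5) and WT G6 mice (n = 3). Points are mice, their shape gives the run period, bars are mean and SD. KO1313, at 68 wells, lies lowest in the first and the last panel among the 10 mice with HCA.

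No microRNA differed between mice with and without amyloidosis beyond the spread between mice. Of 50 microRNAs tested with limma, 0 passed an adjusted p of 0.05 (0%), and 1, miR-486, had an unadjusted p under 0.05 (2%). The exact permutation test found 0 with an unadjusted p under 0.05. No microRNA had groups that did not overlap (0 of 50, 0%). The level was higher with amyloidosis for 24 microRNAs (48%) and lower for 26 (52%), with a median log2 difference of -0.08. The differences ran from -2.07 to 3.13, their median standard error was 0.84, and the 95% interval reached a median of 1.75 log2 units to either side of the difference. No interval lay within 1 log2 unit of 0 on both sides, so a 2-fold change in at least 1 direction was not excluded for any microRNA.

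**Figure D2:**
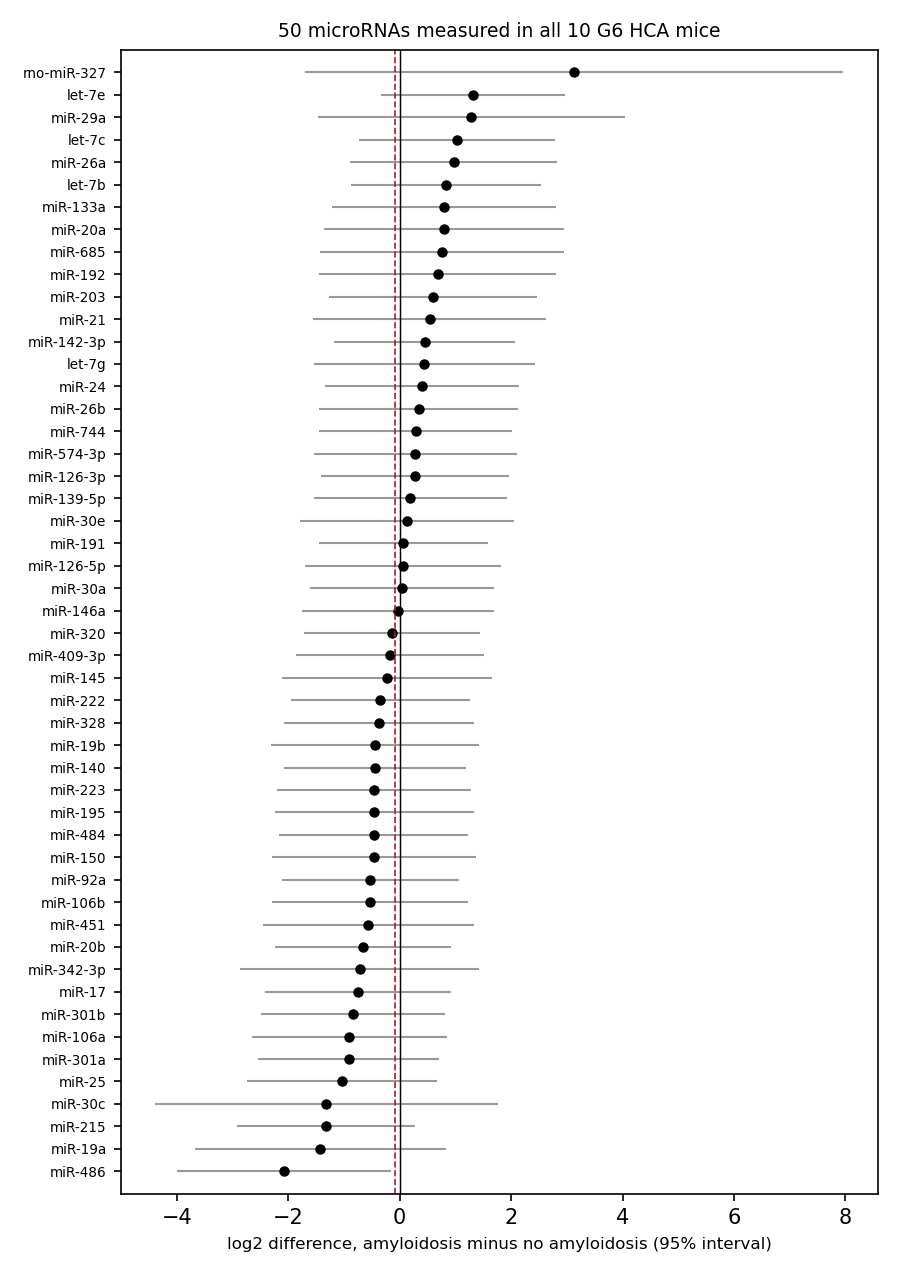
Log2 difference of level, amyloidosis minus no amyloidosis, with its 95% interval (limma) for the 50 microRNAs measured in all 10 G6 LS-G6pc-/- mice with HCA, from the highest to the lowest. The dashed line is the median of -0.08; the interval of miR-486 is the only one that does not reach 0.

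The smallest p-value was that of miR-486, an erythroid microRNA. Levels of 2.48, 1.91, 3.01, -0.97 and 3.80 were measured in KO1011, KO1038, KO1176, KO1270 and KO856 with amyloidosis. They were 3.84, 5.36, 5.33, 2.76 and 3.31 in KO1087, KO1183, KO1215, KO1274 and KO1313 without. All 5 mice with amyloidosis lay below the mean of those without, but the groups overlapped at KO856 and KO1176. KO1183 and KO1215, both run in period 3, stood above all other mice of the 2 groups. The means were 2.05 ± 1.82 and 4.12 ± 1.18 (SD, n = 5 each), a log2 difference of -2.07 with a 95% interval from -3.99 to -0.16 (limma, adjusted p = 0.887). Without KO1270, the lowest mouse, the difference was -1.32, and within run period 2 it was -1.70. In WT G6 mice the level of miR-486 was 6.37, 5.37 and 4.44 (WT104, WT206 and WT207), above every mouse with HCA and amyloidosis. In the 5 G6 mice with amyloidosis and no HCA it ran from 1.67 to 4.75 with a median of 3.67, and in the 1 mouse with neither it was 4.59.

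Other erythrocyte microRNAs were examined beside miR-486, since plasma picks up red cell RNA when cells lyse. Of the 6 assays of the erythrocyte list 4 were tested, and miR-486, miR-25, miR-451 and miR-92a all had lower levels with amyloidosis, with 0 past the adjusted threshold and a median log2 difference of -0.80, against -0.08 over all 50. The summed level of the list ran from 5.17 to 6.71 with and from 5.44 to 7.81 without amyloidosis. miR-451, which erythroid cells make in large amounts, was at 4.10 ± 1.32 with and 4.66 ± 1.67 without amyloidosis (SD, n = 5 each), a difference of -0.56. Within run period 2 miR-486 and miR-25 were lower and miR-451 and miR-92a were higher in mice with amyloidosis. The list median there was -0.06, against 0.80 over all 50. Without KO1313 all 4 were lower, as were 39 of the 50. The list median was then -1.46, against -0.50 over all 50, and miR-451 differed by -1.29. Without the cards under 100 wells all 4 were lower, as were 45 of the 50. The list median was then -1.63, against -0.86 over all 50. The Ct of miR-16 minus that of miR-451 was also compared. It was -0.72 ± 0.87 in 5 mice with amyloidosis and -1.37 ± 1.36 in 4 mice without (SD; two-sided exact permutation test, p = 0.413). Whether this value follows red cell content was not tested, so it was not read as a measure of red cell content. miR-16 was not measured on the card of KO1087, where its Ct was 33.0. The part of red cell content in the level of miR-486 was not tested.

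miR-215 came next. Its level was -1.005, -2.56, -1.33, -2.20 and -1.95 in KO1011, KO1038, KO1176, KO1270 and KO856 with amyloidosis. Without amyloidosis it was -0.82, 0.64, 0.80, -1.57 and -1.48 in KO1087, KO1183, KO1215, KO1274 and KO1313. The mice of run period 3 without amyloidosis, KO1183 and KO1215, stood above all others, while KO1274 and KO1313 lay among the mice with amyloidosis. The log2 difference was -1.33 with a 95% interval from -2.92 to 0.27 (limma, adjusted p = 0.887), and it was -0.48 within run period 2. miR-192, with the same seed, went the other way. It was at 0.99, 3.50, 3.06, 3.46 and 0.88 in the mice with amyloidosis and at -0.66, 2.98, 3.63, 3.47 and -0.94 in those without, in the same orders. The groups overlapped over most of their range, and the log2 difference was 0.68 (95% interval from -1.44 to 2.81). It was 0.02 without KO1313 and -0.98 without both cards under 100 wells. The low mice, KO1011 and KO856 with amyloidosis and KO1087 and KO1313 without, were those with the fewest measured wells of their group.

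let-7e was at -0.57, 0.47, 0.83, 0.29 and 1.43 in KO1011, KO1038, KO1176, KO1270 and KO856 with amyloidosis and at -2.40, -0.47, -1.34, 1.08 and -1.01 in KO1087, KO1183, KO1215, KO1274 and KO1313 without. KO1274 lay above all mice with amyloidosis but KO856, and the other 4 mice without amyloidosis lay below 4 of the 5 with it. The log2 difference was 1.32 (95% interval from -0.33 to 2.96; limma, adjusted p = 0.887). The let-7 family, which restrains growth genes and rises as cells differentiate, had 9 assays on the card and 4 tested. let-7e, let-7c, let-7b and let-7g were all higher with amyloidosis and none passed, with a median of 0.93 against -0.08 over all 50. The direction held for the 4 with the mean of the 50 microRNAs as reference (median 0.97, against -0.05 over all 50). It also held within run period 2 (median 1.33), where 37 of the 50 were higher (median 0.80). Against U6 as reference, which moved the median over all 50 to -1.37, let-7c, let-7b and let-7g turned to -0.26, -0.45 and -0.85 and let-7e was at 0.027. Without KO1313, and without both cards under 100 wells, 3 were higher and 1 lower. The medians were 0.52 and 0.09, against -0.50 and -0.86 over all 50.

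The microRNAs of the miR-17, miR-106a and miR-106b clusters, which are targets of MYC and are made in proliferating cells, were mostly lower with amyloidosis. Of 12 assays 9 were tested, 1 was higher and 8 were lower, 0 passed, and the median was -0.65 against -0.08 over all 50. miR-19a was at -0.54, 0.27, 0.13, -1.18 and -2.65 in the mice with amyloidosis and at 4.30, 1.24, 0.43, 0.34 and -3.16 in those without, in the orders given. KO1087 was far above, and KO1313 below, all other mice, and the log2 difference was -1.42 (95% interval from -3.68 to 0.83). It was -0.51 without KO1087 and -2.37 without KO1313. miR-25 was at -0.67, 0.24, 0.30, -1.33 and -0.97 with and at 0.32, 2.10, 1.19, 0.97 and -1.83 without amyloidosis. Every mouse with amyloidosis lay below every mouse without it but KO1313, which was the lowest of the 10. The log2 difference of miR-25 was -1.04, and -1.63 without KO1313 (limma, adjusted p = 0.887 with all mice). miR-106a and miR-17, with 1 seed between them, differed by -0.90 and -0.74, and miR-20a, the member that was higher, by 0.80. The clusters had 1 member higher and 8 lower without KO1313 (median -1.18), where 39 of all 50 were lower (median -0.50). Without the cards under 100 wells 0 were higher and 9 lower (median -1.46), where 45 of the 50 were lower (median -0.86). Within run period 2, 6 were higher and 3 lower (median 0.07), where 37 of the 50 were higher (median 0.80). KO1183 and KO1215, run in period 3, held the highest levels of miR-25, miR-17 and miR-106a among the 10 mice, so that the direction of these clusters cannot be told apart from the run period.

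miR-301a and miR-301b, of the miR-130 family, had log2 differences of -0.91 and -0.83, and miR-26a, which restrains the cell cycle, one of 0.97. In miR-301a the mice without amyloidosis fell into KO1313 at -4.17 and 4 mice from -1.47 to -1.24, and the mice with amyloidosis ran from -3.81 to -2.32 between them. Without KO1313 the difference of miR-301a was -1.48. In that set 39 of the 50 microRNAs were lower with amyloidosis, and the lowest adjusted p of the fit was 0.335 (limma). miR-26a was at -0.39 without the cards under 100 wells.

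rno-miR-327 had the largest difference and was split by run period. Its level was 7.35, 5.32, 8.87, 7.35 and 9.05 in KO1011, KO1038, KO1176, KO1270 and KO856 with amyloidosis, and 11.22, -4.04, -3.16, 8.27 and 9.98 in KO1087, KO1183, KO1215, KO1274 and KO1313 without. The raw Ct of KO1183 and KO1215 was 31.3 and 30.8, against 16.2 to 21.97 on the 8 other cards. Over all 63 cards of the series its Ct was under 25 on 8 of 8 cards of run period 1, on 15 of 27 of run period 2 and on 0 of 28 of run period 3. The log2 difference of 3.13 (limma, adjusted p = 0.887) turned to -2.60 within run period 2. For this assay, designed on the rat sequence, amyloidosis and run period cannot be told apart over the 10 mice.

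The 7 microRNAs fixed by name were set out by mouse whatever their p, and miR-486 and miR-192 are given above. The study's text names 6 of them for amyloidosis over a wider age range, and miR-29a was taken from its table. The study made its choice on mice that include these 10, so the direction of all 7 here is not independent evidence. miR-29a was at 1.19, 3.07, 2.49, 3.26 and -3.91 in KO1011, KO1038, KO1176, KO1270 and KO856 with amyloidosis and at -0.06, 2.56, 1.97, -3.79 and -1.03 in KO1087, KO1183, KO1215, KO1274 and KO1313 without. KO856, the only card of run period 1, was the lowest of the 10 and the other 4 mice with amyloidosis were at 1.19 or above. The log2 difference was 1.29 (95% interval from -1.47 to 4.05; limma, adjusted p = 0.887). Without KO856 the difference was 2.57 (limma, adjusted p = 0.778). Within run period 2, 4 mice with amyloidosis from 1.19 to 3.26 stood above 3 mice without from -3.79 to -0.06. With run period as a block the difference was 4.13 ± 0.89 (standard error) and passed (limma, adjusted p = 0.031), 1 of 50 microRNAs called (2%). It did not pass in run period 2 fitted alone (adjusted p = 0.055), nor with the block and the mean of the 50 microRNAs as reference (3.47, adjusted p = 0.197). In run period 2 alone the groups of 6 of the 50 microRNAs did not overlap (12%), miR-29a, miR-30e, miR-744, miR-145, miR-146a and miR-409-3p, all higher with amyloidosis, in a set of cards where 37 of 50 microRNAs were higher.

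miR-21, which increases in many inflamed tissues, was at 2.21, 2.66, 2.44, 2.51 and -0.07 with and at 1.14, 2.24, 2.84, 3.29 and -2.46 without amyloidosis, in the orders given. The levels of 4 mice of each group lay between 1.14 and 3.29, KO856 and KO1313 lay apart, and the difference of 0.54 became -0.43 without KO1313. miR-150, made in mature lymphocytes, was at 2.62, 1.60, 2.60, 1.81 and 5.56 with and at 2.46, 5.02, 3.77, 3.24 and 2.03 without amyloidosis. KO856 was the highest of the 10, the other 4 mice with amyloidosis lay among the lower ones, and the difference was -0.47 (95% interval from -2.30 to 1.36), and -1.15 without KO856.

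miR-409-3p, encoded in the imprinted Dlk1-Dio3 region, was at 0.65, -0.54, -0.12, -0.72 and -0.87 with and at -0.98, 1.85, 0.90, -1.74 and -0.78 without amyloidosis. KO1183 and KO1215 of run period 3 were the highest, and the difference of -0.17 turned to 0.98 within run period 2. In WT G6 mice miR-409-3p was at -1.93, -2.13 and -3.14, below all 10 mice with HCA. Of the 43 assays of the Dlk1-Dio3 list 1 was tested and 32 were measured in none of the 10 mice. miR-345-5p, of the same chromosome, was measured in 5 mice with and 4 without amyloidosis and so was not in the fit. Its level was -0.74, -0.30, 1.35, 0.60 and -0.41 with amyloidosis and -3.75, 1.16, -1.36 and 1.00 in KO1087, KO1183, KO1215 and KO1274 without, and KO1313 had a Ct of 32.6. The mouse far below the rest and the mouse without a measured value were the 2 cards under 100 wells. In WT G6 mice it was -1.28, -0.55 and -1.86.

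**Figure D3:**
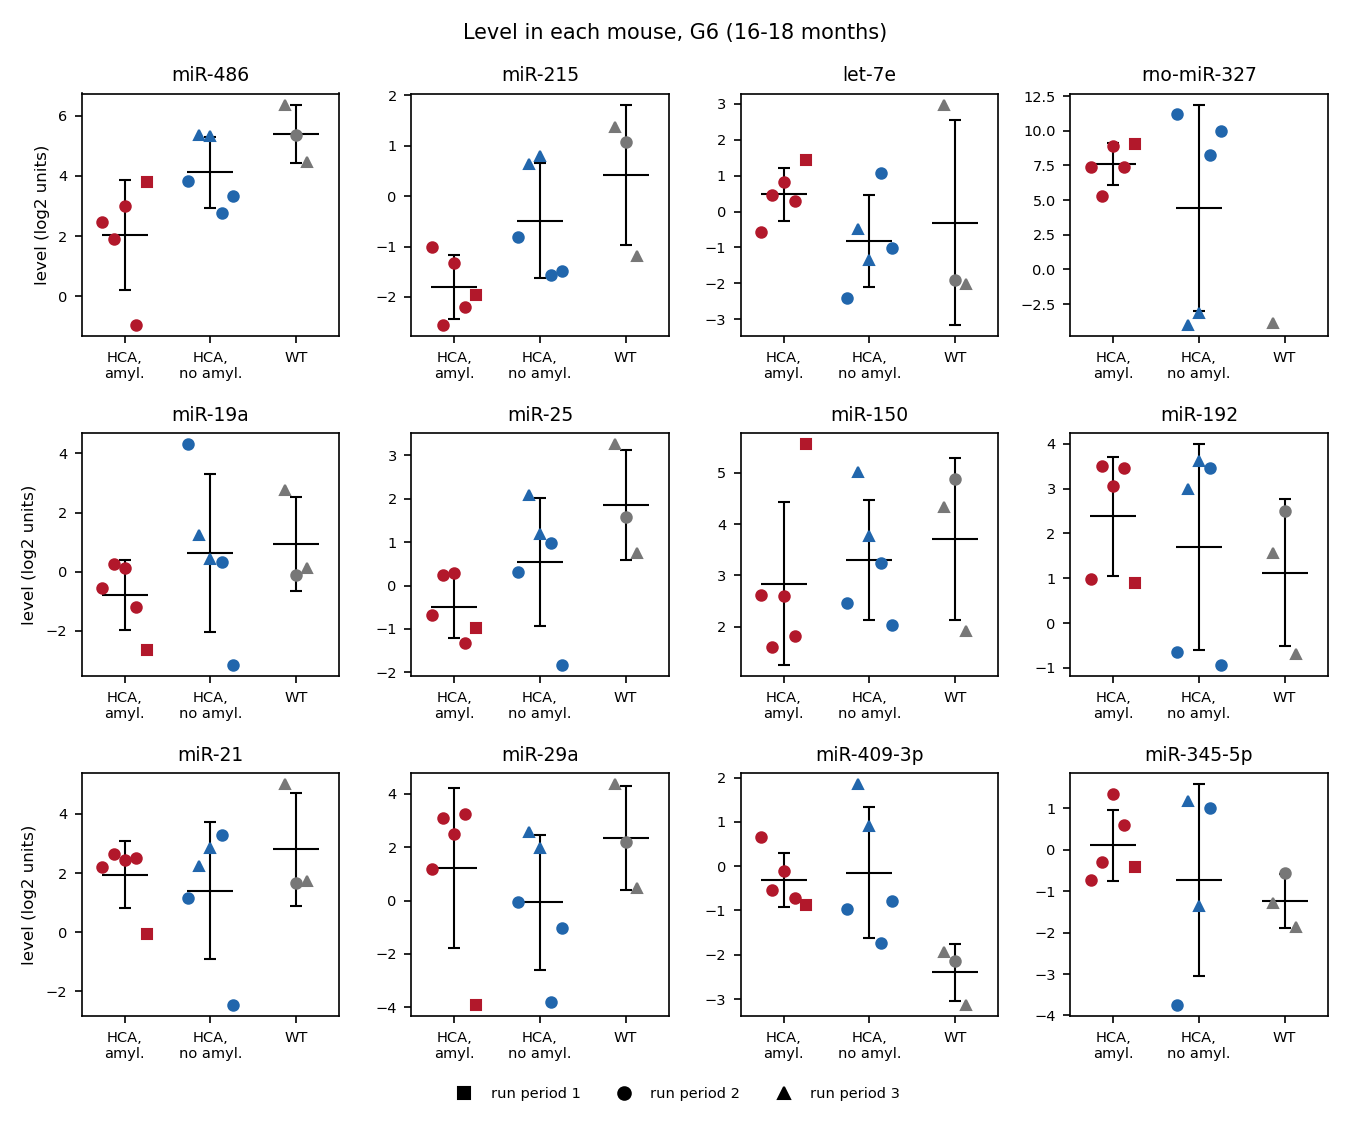
Level (log2 units, mean measured Ct of the card minus Ct) of the 6 microRNAs with the smallest p-values and of 6 further microRNAs, in each G6 LS-G6pc-/- mouse with HCA and amyloidosis (n = 5), with HCA and no amyloidosis (n = 5) and WT G6 mouse (n = 3). Points are mice where the assay was measured, shapes give the run period, bars are mean and SD. The groups with and without amyloidosis overlap in each panel. The 2 cards of run period 3 lie below the other mice without amyloidosis for rno-miR-327. They lie above them for miR-486, miR-215, miR-25, miR-150, miR-29a and miR-409-3p.

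Markers of the other sources of plasma vesicles were few among the 50 microRNAs. Of 10 leukocyte assays 5 were tested, 1 was higher (miR-142-3p, 0.45) and 4 were lower (miR-342-3p, -0.72; miR-150, -0.47; miR-223, -0.46; miR-146a, -0.03), with a median of -0.46. Of 8 assays of platelets and endothelium 6 were tested, 4 higher and 2 lower, with a median of 0.06, and miR-24 and miR-222 differed by 0.41 and -0.35. Of 10 microRNAs tied to inflammation in general 4 were tested, 1 higher and 3 lower, with a median of -0.24. In these 3 lists 0 microRNAs passed, and the median over all 50 was -0.08. Without KO1313 every tested member of the leukocyte and of the platelet list was lower, with medians of -0.75 and -0.37 against -0.50 over the 50. Within run period 2 the leukocyte list had 3 higher and 2 lower (median 0.68). The platelet list had 5 higher and 1 lower there (median 0.61), against a median of 0.80 over the 50.

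Of the hepatocyte list 1 microRNA, miR-192, was tested. miR-122, which makes up most of the microRNA of hepatocytes, had Ct of 30.4, 21.3, 22.8, 21.2 and 31.9 in KO1011, KO1038, KO1176, KO1270 and KO856 with amyloidosis and of 32.4, 23.3, 25.3, 21.4 and 36.5 in KO1087, KO1183, KO1215, KO1274 and KO1313 without. Each group held mice near 21 cycles and mice past 30 cycles, and the mice past 30 cycles were the cards with the fewest measured wells of their group. In WT G6 mice the Ct of miR-122 was 28.2, 24.4 and 38.5. Single tested members stood for smooth muscle (miR-145, -0.22), striated muscle (miR-133a, 0.80), epithelium (miR-203, 0.60), the miR-15 family (miR-195, -0.46) and the miR-27, miR-23 and miR-24 clusters (miR-24, 0.41). The miR-30 family had 3 tested, miR-30c at -1.31, miR-30e at 0.13 and miR-30a at 0.04. miR-30c turned to 0.53 without KO1087, whose Ct for it was 16.01 against 23.5 to 28.2 on the other 9 cards. Of the 8 nervous system assays 0 were measured in all 10 mice. The 6 microRNAs that the study ties to liver tumors had 5 tested, of which 3 were higher, 2 were lower and 0 passed (median 0.29, against -0.08 over all 50). The list had 1 higher and 4 lower without KO1313 (median -0.18, against -0.50 over all 50). It had 1 higher and 4 lower without the cards under 100 wells (median -0.38, against -0.86). In run period 2 the list had 5 higher (median 1.23, against 0.80). The study chose it on mice that include these 10, so it is not independent evidence.

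**Figure D4:**
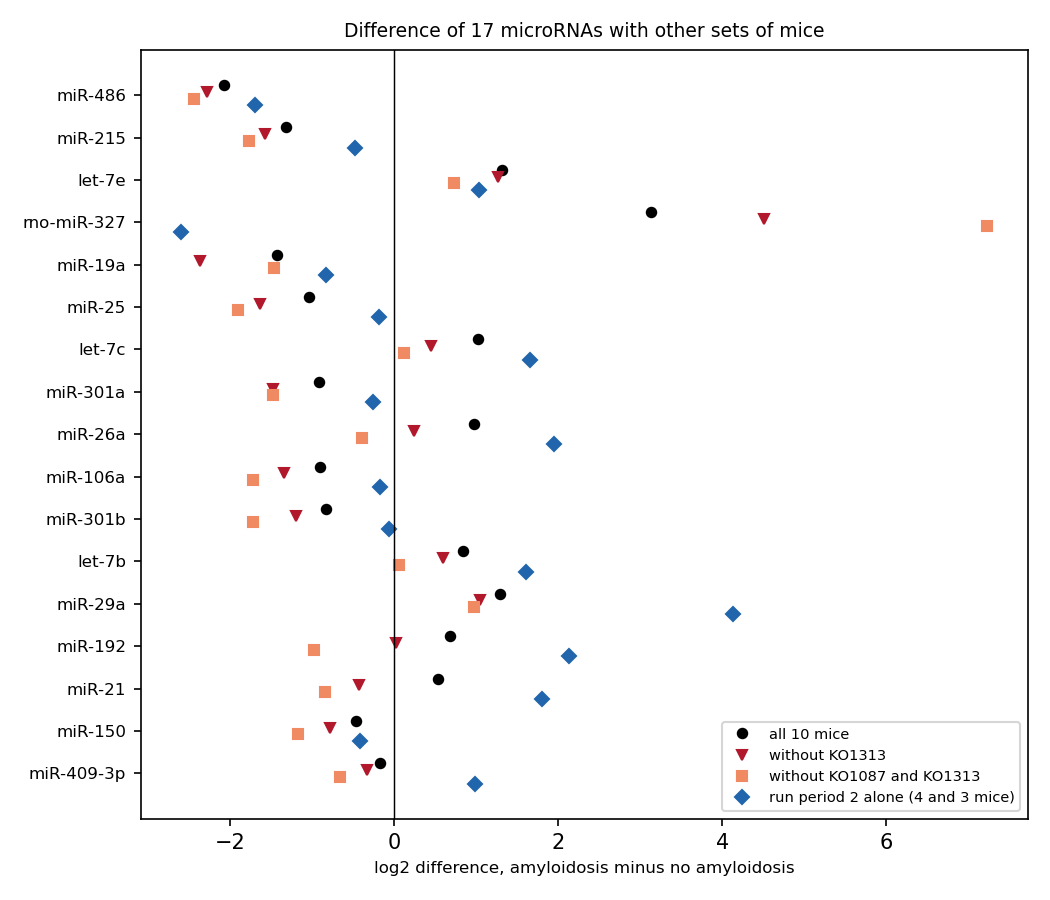
Log2 difference, amyloidosis minus no amyloidosis, of the 12 microRNAs with the smallest p-values and of 5 further microRNAs, with all 10 mice, without KO1313, without KO1087 and KO1313 (the cards under 100 measured wells) and in the 7 mice of run period 2. miR-486, miR-215, miR-19a, miR-25, miR-301a, miR-106a, miR-301b and miR-150 stay below 0 in each set. let-7e, let-7c, let-7b and miR-29a stay above 0, whereas rno-miR-327, miR-26a, miR-192, miR-21 and miR-409-3p lie on both sides.

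The balance of higher and lower microRNAs depended on the low cards. Without KO1313, 11 of the 50 microRNAs were higher and 39 lower with amyloidosis (median -0.50), and without both cards under 100 wells 5 were higher and 45 lower (median -0.86). In run period 2, where both these cards lie on the side without amyloidosis, 37 were higher and 13 lower (median 0.80). With the mean of the 50 microRNAs as reference, 25 were higher and 25 lower. The level of a microRNA varied more between mice without amyloidosis, with a median SD over microRNAs of 0.95 in mice with and 1.48 in mice without it. With the mean of the 50 as reference these medians were 0.84 with and 0.79 without amyloidosis.

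Assays measured on some cards alone were compared by the number of mice. Of 375 assays 200 were measured in none of the 10 mice, 125 in 1 to 9 and 50 in all. Among 51 assays measured in at least 3 mice and missing in at least 3, 28 were measured in more mice with amyloidosis (54.9%), 9 in fewer and 14 in equal numbers. Both cards under 100 wells, KO1087 and KO1313, lay on the side without amyloidosis. The part of card depth in these numbers was not tested. Fisher's exact test found 0 past an adjusted p of 0.05 (0%) and 2 with an unadjusted p under 0.05 (3.92%), miR-31 and miR-546. miR-31 had Ct of 31.1, 27.2, 28.7, 26.1 and 14.01 in KO1011, KO1038, KO1176, KO1270 and KO856 with amyloidosis and of 32.5, 30.3, 32.3, 38.3 and 33.3 in KO1087, KO1183, KO1215, KO1274 and KO1313 without. It was measured in 5 of 5 mice with and 1 of 5 without amyloidosis (Fisher's exact test, two-sided, p = 0.0476, adjusted p = 1). KO856 lay far from the next card, KO1270 at 26.1, while KO1087 and KO1215 missed the limit of 32 by less than 1 cycle. miR-31 was measured in all 3 WT G6 mice, at 27.4, 31.0 and 31.4, in 2 of 5 G6 mice with amyloidosis and no HCA, and in G5 mice with HCA in 0 of 2 with and 3 of 4 without amyloidosis, where KO1198 with amyloidosis and KO953 without had Ct of 12.3 and 11.9, under the range.

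miR-546 had Ct of 30.8, 29.2, 31.96, 30.7 and 31.4 with amyloidosis, and of 32.6 and 27.9 in KO1215 and KO1274 without, where KO1087, KO1183 and KO1313 had no Ct. It was likewise measured in 5 of 5 mice with and 1 of 5 without amyloidosis, in 0 of 3 WT G6 mice and in G5 mice with HCA in 2 of 2 with and 1 of 4 without. The Ct were close to the limit, KO1274 without amyloidosis had the lowest, and with a limit of 35 neither miR-31 nor miR-546 had an unadjusted p under 0.05. miR-9, a microRNA of neural cells, and miR-99b were measured in 0 of 5 mice with and 3 of 5 without amyloidosis, but miR-99b lay between 31.2 and 32.6 cycles on 9 of the 10 cards. miR-139-3p was measured in 5 with and 2 without amyloidosis and miR-193 in 3 with and 0 without (Fisher's exact test, p = 0.167 for each of these 4, adjusted p = 1).

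**Figure D5:**
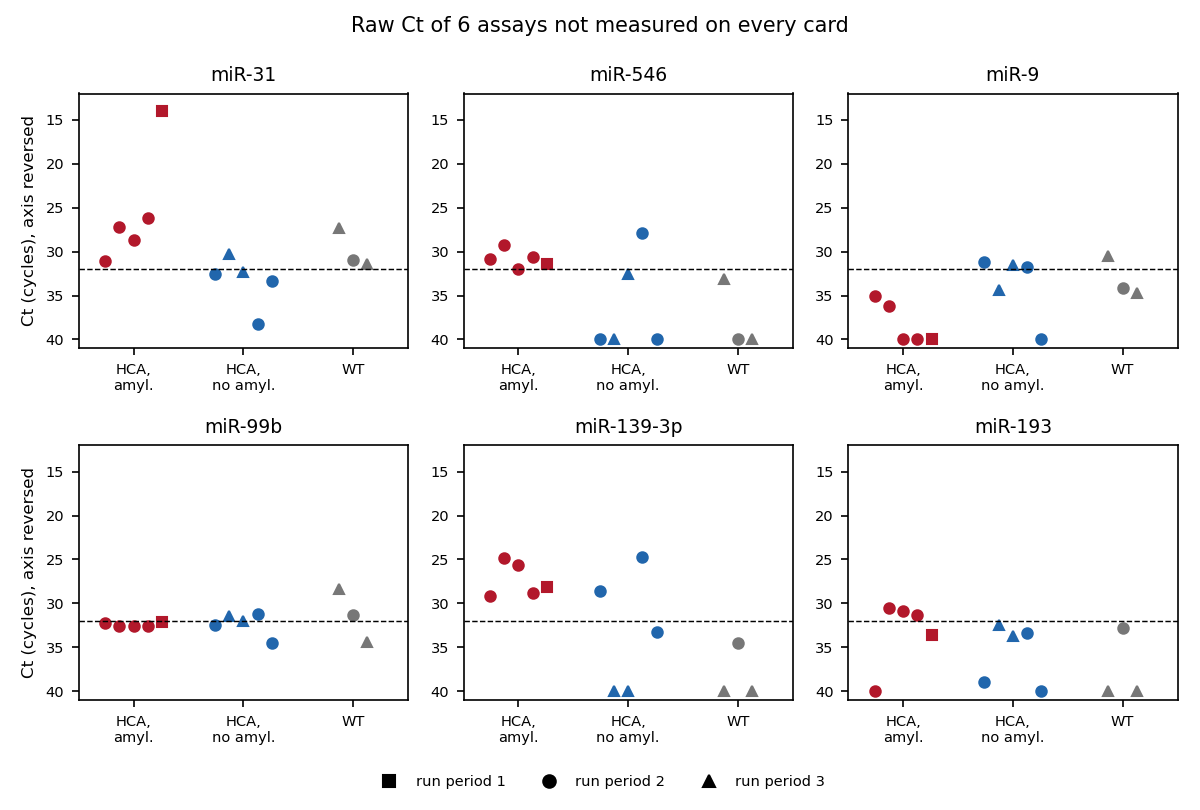
Raw Ct (cycles, axis reversed so that abundant RNA is at the top; 40 stands for no Ct) of 6 assays not measured on every card, in G6 LS-G6pc-/- mice with HCA and amyloidosis (n = 5), with HCA and no amyloidosis (n = 5) and WT G6 mice (n = 3). The dashed line is the limit of 32 cycles and shapes give the run period; miR-31 at 14.01 in KO856 stands apart, and the miR-99b values crowd at the limit.

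The same contrast was set out in the younger mice with HCA, which share no mouse with the 10. Their cards measured 113 and 178 wells with amyloidosis (KO1198 and KO978). Those without measured 133, 96, 96 and 187 wells (KO1124, KO1385, KO1412 and KO953). KO978 and KO953 were run in period 1 and the other G5 cards with HCA in period 2. Of 46 microRNAs measured in all 16 mice, the difference between mice with and without amyloidosis in G6 minus that in G5 passed for 0 (limma interaction, 0%), and 0 had an unadjusted p under 0.05. The median difference was -0.08 in G6 and 0.23 in G5, and 27 of the 46 had the same sign in both. miR-486 was at 3.61 and 1.16 in the 2 G5 mice with amyloidosis (KO1198 and KO978) and at 4.30, 4.86, 6.44 and 4.19 in the 4 without (KO1124, KO1385, KO1412 and KO953). Both mice with amyloidosis lay below the 4 without, a difference of -2.56 in G5 beside -2.07 in G6. Of the 46 microRNAs, the same order held in G5 for miR-320, miR-191, miR-222 and miR-30e as well, and for no other. With 2 mice against 4, such a separation alone does not show a difference. miR-215 differed by -2.68 in G5 and let-7e by 0.99. miR-25 and miR-30e differed by 1.11 and -2.92 in G5 against -1.04 and 0.13 in G6, and the interaction of miR-30e had the smallest p-value (3.05, 95% interval from -0.02 to 6.12; limma, adjusted p = 0.973). With 2 mice with amyloidosis in G5, differences of this size lay within the error of the test.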

How the data were processed

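Plasma exosomal RNA was profiled on TaqMan Array Rodent microRNA A cards on a ViiA 7, 1 card per mouse. The authors deposited raw Ct (a log2 scale with the sign reversed, read at a fluorescence threshold of 0.1; 40 where no Ct was obtained) and log2 values normalized by the global mean with PIPE-T; these differed from the levels used here by at most 0.0154. Levels were computed from raw Ct of 14-32; 50 of 375 microRNA assays were measured in all 10 mice. limma 3.58.1 (R 4.3.3) with Benjamini-Hochberg adjustment at 0.05 tested levels. Exact permutation tests enumerated 252 splits (smallest two-sided p 0.00794), and Fisher's exact test compared detection (scipy 1.17.1). The limma step was tested on simulated data. P-values set the difference between groups against the spread between these mice, whose cards also differ in run period and depth. Ct files hold no read depth; the number of wells limits precision. Named in the text are the 12 microRNAs with the smallest p-values and 7 fixed by name. Those 7 are 6 that the study's text names for amyloidosis and miR-29a of its table. Up to 3 of each list with the largest differences and 6 of the detection test were also named. let-7g, miR-92a, miR-17, miR-20a, miR-146a, miR-744, miR-16, miR-122, miR-320, miR-191 and those of the other observations were added after their values were seen. Members and lists were chosen with earlier results of these data known. Run days held both groups on 0 days, so run day was not fitted as a block.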

Additional observations from a re-analysis of the deposited data

Results flagged for a closer look

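Among 70 sets of 5 values examined for a single distant mouse, 8 had one by Dixon's criterion of 0.71; chance marks about 1 in 20 such sets. In G6 mice with HCA and amyloidosis KO856, their only card of run period 1, was the distant mouse for 5 microRNAs. It was highest for miR-150 (5.56, next 2.62) and lowest for miR-21 (-0.071, next 2.21), miR-29a (-3.91, next 1.19), miR-145 (-4.22, next -0.83) and miR-30e (-2.58, next 0.45). The mean measured Ct of KO1011 was 28.14 cycles, against 27.49 for the next card with amyloidosis. In mice without amyloidosis KO1313, the card with 68 measured wells, was lowest for miR-301a (-4.17, next -1.47) and miR-451 (1.76, next 4.81).

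Among control assays outside the comparison, snoRNA135 reached a Ct of 26.8 in KO1270 and was below the lowest WT G6 card (29.9) on 4 of the 10 cards. U87 reached a Ct of 23.6 in KO1274 and was below the lowest WT G6 card (32.03) on 2 of the 10 cards. The part of these signals in the levels was not tested.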

How the results depend on the processing

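Under every alternative run, 0 microRNAs passed in the comparison of 10 mice except with run period as a block (1, miR-29a) and with array weights (1, rno-miR-327, 7.98, limma adjusted p = 0.039). The count at an unadjusted p under 0.05 was 1 with all mice, 15 with array weights and 11 without the cards under 100 wells. Leaving out each mouse gave 0 calls throughout, a median difference from -0.50 to 0.33 and 0 calls in detection. It moved the difference in measured wells from -2.35 to 14.2 and that in mean measured Ct from -0.063 to 0.19 cycles. The difference in mean measured Ct was -0.046 cycles with Ct of up to 35. The U6 reference moved the median to -1.37. Detection and the interaction kept 0 calls in each alternative. Levels of 30 microRNAs were followed, of which 10 kept their sign throughout, miR-486, miR-215 and let-7e among them. No paired analysis was possible because the groups share no replicate numbers. Signs turned as follows, and the cause was not tested. With run period as a block, and in run period 2 alone, a choice added after seeing the data, differences were -2.60 (rno-miR-327), 0.98 (miR-409-3p), 0.16 (miR-451), 0.68 (miR-342-3p), 0.26 (miR-222), 1.23 (miR-145) and 0.68 (miR-195). With that block and the mean of the 50 microRNAs as reference, also added, they were -3.26 (rno-miR-327), 0.32 (miR-409-3p), 0.019 (miR-342-3p), 0.56 (miR-145) and 0.019 (miR-195). Against U6 they were -0.26 (let-7c), -0.32 (miR-26a), -0.45 (let-7b), -0.61 (miR-192), -0.75 (miR-21), -0.0014 (miR-29a), -0.88 (miR-24), -0.49 (miR-133a), -0.69 (miR-203), -1.16 (miR-30e), -1.25 (miR-30a) and -0.84 (miR-142-3p). Without the cards under 100 wells they were -0.39 (miR-26a), -0.98 (miR-192), -0.84 (miR-21), -0.71 (miR-24), -0.24 (miR-133a), -0.61 (miR-203), -0.43 (miR-30e), -0.88 (miR-30a) and -0.34 (miR-142-3p). With array weights they were -0.20 (miR-192), -0.15 (miR-21), -0.52 (miR-24), -0.043 (miR-203), -0.31 (miR-30e), -0.73 (miR-30a) and -0.23 (miR-142-3p). With measured assays as a covariate they were -0.093 (miR-21), -0.0039 (miR-24), -0.19 (miR-30e) and -0.32 (miR-30a). miR-30e and miR-30a were at -0.13 and -0.22 with the median as reference and at -0.0074 and -0.10 with Ct of up to 35. Leaving out single mice turned miR-21 (-0.43 to 1.04), miR-409-3p (-0.57 to 0.33), miR-24 (-0.12 to 0.80), miR-222 (-0.68 to 0.049), miR-145 (-0.70 to 0.52), miR-203 (-0.17 to 1.03), miR-30c (-2.41 to 0.53), miR-30e (-0.28 to 0.82), miR-30a (-0.55 to 0.33) and miR-142-3p (-0.019 to 0.82).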

Other observations

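Some wells lay far from the same assay on other cards. On the card of KO1087 the Ct was 8.20 for miR-18a, against 28.8 to 35.1 on the 9 other cards. On that of KO856 it was 9.24 for miR-874, which gave no Ct on the 9 other cards, and 12.1 for miR-188-5p. miR-188-5p was at 15.1 in KO1274 and between 28.4 and 31.0 on the remaining 8 cards. miR-155 was at 19.7 in KO856 with amyloidosis and at 18.9 and 19.3 in KO1087 and KO1274 without, against 29.2 to 32.1 on 6 other cards, and gave no Ct in KO1313. miR-31 had a Ct of 14.01 in KO856, and of 12.3 and 11.9 in the G5 mice KO1198 with and KO953 without amyloidosis. Wells under 14 cycles were left out of the levels, and those above it were kept.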
